A study of Mus musculus with 21 samples.

Results

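Sox genes encode transcription factors that bind DNA through a high mobility group (HMG) box. Here 7 of them were followed in the embryonic cortex of mice with different Pax6 mutations, 5 known from neural progenitors (Sox1, Sox2, Sox3, Sox9 and Sox21) and 2 known from young neurons (Sox4 and Sox11). The members were all probe sets that the platform annotation assigns to these 7 genes. There were 24 such probe sets among the 45101 on the array, and 21 of the 24 passed the filter on low values. For each gene the kept probe set of highest mean over all arrays stood for it, and all 7 were among the 13850 genes tested.

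The RNA came from the rostral cerebral cortex of untreated embryos at embryonic day 14 and was read on 21 Affymetrix arrays, 1 per sample. Pax6 Sey (Small-eye) mutants were represented by 4 arrays and their littermate controls by 3, on a hybrid background of C57BL/6J and DBA/2J. Pax6 Leca4 mutants were represented by 3 arrays and their littermate controls by 4, and Pax6 Leca2 mutants by 4 arrays and their littermate controls by 3, both on a 129 S6 background. All controls were wild type. The labels used here do not give the zygosity of the mutants, and they call the arrays of a group biological replicates. From general knowledge, the Sey allele truncates the Pax6 protein, while the title of the study places its question on subdomains of the paired domain, the part of Pax6 that binds DNA together with its homeodomain. A mutation present in the whole animal acts in every cell that uses Pax6, not in the cortex alone.

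In the developing cortex, the SoxB1 factors Sox1, Sox2 and Sox3 keep neuroepithelial cells and radial glia in the progenitor state. Sox21, a SoxB2 factor, is known as a repressor that opposes SoxB1 activity, and Sox9, a SoxE factor, is known for neural stem cells and for the onset of gliogenesis. The SoxC factors Sox4 and Sox11 are switched on as cells leave the cell cycle and activate genes of early neurons. Pax6 itself is a factor of the radial glia of the dorsal telencephalon.

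RefSeq (GRCm38.p6) places Sox1 at chr8:12395519-12399555, Sox2 at chr3:34649995-34652461, Sox3 at chrX:60891366-60893430, Sox9 at chr11:112782210-112787757, Sox21 at chr14:118233233-118237030, Sox4 at chr13:28948919-28953699 and Sox11 at chr12:27334268-27342718. RefSeq promoters were found for 5 of the 7 members, Sox1, Sox2, Sox21, Sox4 and Sox11. Promoters are shown for the 2 SoxB1 genes whose signal was higher in Sey mutants and for the SoxC pair, as the regions next to the starts of the genes the results turn on. Each runs 5′ to 3′ on the gene's own strand, from 250 bases before to 50 bases after the RefSeq start. Capitals mark CCAAT on either strand, the box found in many promoters. The Sox1 promoter is at chr8:12395269-12395568 (plus strand), the Sox2 promoter at chr3:34649745-34650044 (plus), the Sox4 promoter at chr13:28953650-28953949 (minus) and the Sox11 promoter at chr12:27342669-27342968 (minus).
Sox1: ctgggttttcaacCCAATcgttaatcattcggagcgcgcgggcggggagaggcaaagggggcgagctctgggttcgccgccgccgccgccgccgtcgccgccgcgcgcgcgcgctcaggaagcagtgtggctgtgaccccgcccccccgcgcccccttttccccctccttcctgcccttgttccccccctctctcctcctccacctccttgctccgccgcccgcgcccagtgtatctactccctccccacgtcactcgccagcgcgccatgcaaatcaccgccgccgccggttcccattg
Sox2: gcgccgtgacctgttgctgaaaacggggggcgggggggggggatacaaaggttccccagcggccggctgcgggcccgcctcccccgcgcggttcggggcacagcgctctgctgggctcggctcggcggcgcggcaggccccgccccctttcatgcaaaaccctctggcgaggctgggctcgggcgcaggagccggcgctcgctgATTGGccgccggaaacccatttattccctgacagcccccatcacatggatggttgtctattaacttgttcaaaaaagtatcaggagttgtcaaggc
Sox4: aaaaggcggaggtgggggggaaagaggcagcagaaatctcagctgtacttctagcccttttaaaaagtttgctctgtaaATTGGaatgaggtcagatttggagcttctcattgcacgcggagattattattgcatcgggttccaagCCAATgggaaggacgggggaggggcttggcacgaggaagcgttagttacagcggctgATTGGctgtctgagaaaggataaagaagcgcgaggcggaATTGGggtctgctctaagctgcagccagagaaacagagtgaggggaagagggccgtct
Sox11: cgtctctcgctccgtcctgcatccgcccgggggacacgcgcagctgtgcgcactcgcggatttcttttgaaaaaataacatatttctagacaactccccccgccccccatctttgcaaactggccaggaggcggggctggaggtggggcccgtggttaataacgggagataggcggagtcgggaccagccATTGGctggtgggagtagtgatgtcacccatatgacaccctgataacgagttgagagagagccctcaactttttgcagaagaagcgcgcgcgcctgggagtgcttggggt

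The Sox1 promoter had 70.7% G and C with 37 CpG dinucleotides, and the Sox2 promoter 66.3% with 27, against medians of 52.7% and 7 over 32851 RefSeq promoters of the same 300 bases. The Sox21 promoter had 65.7% and 22 CpG, that of Sox11 58.7% and 21, and that of Sox4 52.0% and 12. CCAAT occurred 1 time in the promoters of Sox1, Sox2 and Sox11, 4 times in that of Sox4 and not in that of Sox21, and 37.4% of all promoters hold it. The letters ATTGTT (held by 10.7% of all promoters), to which Sox proteins bind, TAATTA (5.29%), to which homeodomains bind, and TATAAA (13.6%) were searched on both strands and occurred in none of the 5. TAATTA reads the same on both strands, and no motif searched overlaps another in these promoters.

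The deposited values are log2 RMA signals, and a change is the mutant mean minus the littermate control mean on that scale. Median signals lay between 6.03 and 6.07 on the Sey arrays, between 6.25 and 6.26 on the Leca4 arrays and between 6.11 and 6.18 on the Leca2 arrays, so levels were set against each other only within a line. A gene was called where limma's moderated test, run over all genes, gave a Benjamini-Hochberg adjusted p under 0.05. By that rule 20.2% of all genes were called in Sey, 5.62% in Leca4 and 0.477% in Leca2. At the probe set that stood for it, Pax6 RNA was higher in the mutants of each line. It lay between 10.94 and 11.34 in Sey mutants against 10.55 to 10.64 in controls, between 11.86 and 12.20 in Leca4 mutants against 11.41 to 11.68 in controls, and between 12.04 and 12.26 in Leca2 mutants against 11.12 to 11.31 in controls. The further kept Pax6 probe sets, tested singly with limma, also changed upward in each line. None of them was called in Leca4 (0.17, 0.16 and 0.07, adjusted p = 0.650, 0.360 and 0.671). In Sey 1 was not called (0.19, adjusted p = 0.0874), and in Leca2 1 was not (0.34, adjusted p = 0.120). As an RNA level, the Pax6 signal does not check alleles that change the protein. By Xist and Y-linked genes, the Sey mutants were 1 male and 3 females and the Sey controls 3 males, while Leca4 had 2 males among 3 mutants and 3 males among 4 controls, and Leca2 had 2 males among 4 mutants and none among 3 controls.

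Of the 5 progenitor genes, Sox1, Sox2 and Sox9 rose and Sox3 fell in Sey mutants, and Sox21 did not pass the test. Of the 2 neuronal genes, neither passed the test at its representative probe set, though 2 further probe sets of Sox11 were called lower. This made 4 of 7 members called in Sey, 3 higher and 1 lower, where 20.2% of all genes were called, 10.7% higher and 9.41% lower. No member was called by limma in Leca4, where 5.62% of all genes were called, and none in Leca2, where 0.477% were. At an unadjusted p under 0.05 there were 5 members in Sey, 1 in Leca4 (Sox3) and 2 in Leca2 (Sox1 and Sox3). For the differences between the lines' changes, 2 members were called between Sey and Leca4 (Sox1 and Sox3), where 12.8% of all genes were, 1 between Sey and Leca2 (Sox1), where 6.69% were, and none by limma between Leca4 and Leca2, where 2.38% were (2 members at an unadjusted p under 0.05). The median size of the members' change, regardless of direction, was 0.39 in Sey against 0.11 over all genes, 0.08 in Leca4 against 0.08, and 0.04 in Leca2 against 0.06. The signed median was 0.11 in Sey, 0.04 in Leca4 and -0.02 in Leca2. The arrays hold bulk tissue, in which fewer cells of a type and less RNA per cell cannot be told apart.

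**Figure D1:**
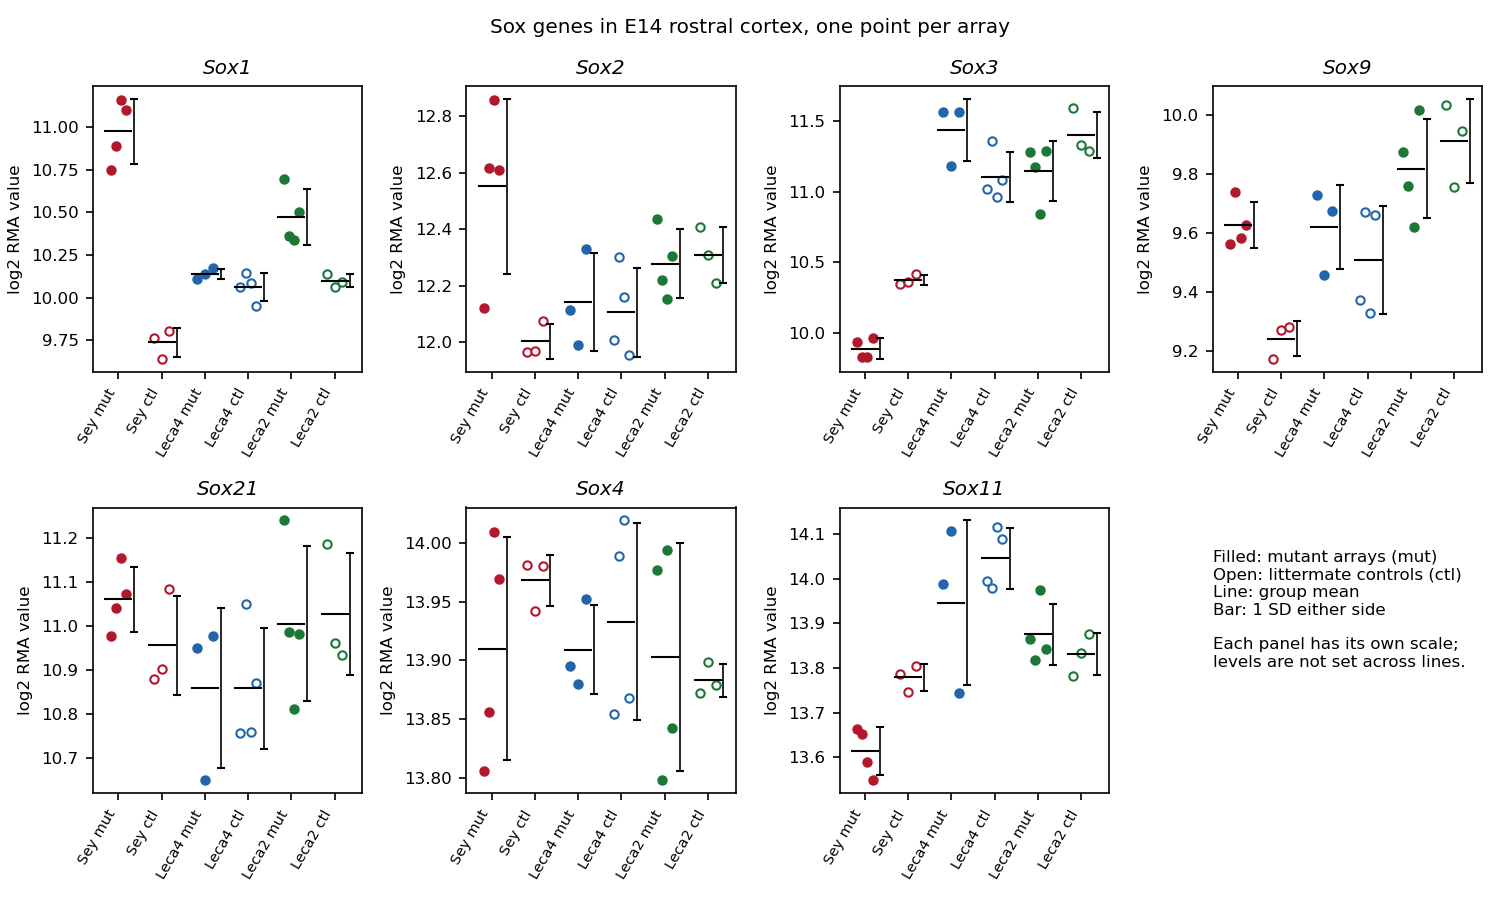
Log2 RMA values (y axis, own scale in each panel) of the 7 Sox genes in the 6 groups (x axis), 1 point per array, with mutants left of their littermate controls. Lines are group means and bars 1 SD either side. The Sey mutant and control points do not overlap for Sox1, Sox2, Sox3, Sox9 and Sox11.

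Sox1, the SoxB1 gene that in the mouse is first expressed as the neural plate forms, had log2 values of 10.75, 10.89, 11.16 and 11.10 in the 4 Sey mutants, against 9.77, 9.64 and 9.80 in the 3 controls. Every mutant array lay above every control array. The means were 10.97 ± 0.19 in mutants and 9.74 ± 0.08 in controls (SD, n = 4 and 3), a 2.36-fold rise (log2 change 1.24 ± 0.09 SE, limma adjusted p = 1.41e-08). The size of this change exceeded that of 98.9% of the genes tested. In Leca4, Sox1 stood at 10.11, 10.14 and 10.17 in mutants against 10.06, 10.15, 10.09 and 9.95 in controls, and the groups overlapped (change 0.08 ± 0.09, adjusted p = 0.730).

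In Leca2, Sox1 stood at 10.70, 10.36, 10.34 and 10.50 in mutants, against 10.14, 10.07 and 10.09 in controls. All Leca2 mutant arrays lay above all controls, and Sox1 was the single member of 7 with no overlap there, in a line where 6.6% of all genes had none. The change was 0.375 ± 0.091 (95% interval 0.184 to 0.565), with a limma adjusted p of 0.0944 over all genes, so it was not called. With arrays weighted by their quality the change was 0.37 and the adjusted p 0.0365, so that the call in Leca2 turned on this setting, 1 of 18 alternatives. Over the alternatives the change ranged from 0.25 to 0.42. A second Sox1 probe set, tested on its own, gave 0.13 in Leca2 (limma adjusted p = 0.948). The Sey change of Sox1 exceeded the Leca4 change by 1.16 ± 0.13 (adjusted p = 6.17e-06) and the Leca2 change by 0.86 ± 0.13 (adjusted p = 0.000304). The Leca4 and Leca2 changes differed by -0.30 (95% interval -0.57 to -0.03), which was not called (adjusted p = 0.280).

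Sox2, the SoxB1 gene of neural stem cells, gave 12.12, 12.62, 12.86 and 12.61 in Sey mutants, against 11.97, 11.97 and 12.08 in controls. All mutant arrays were above all controls, but mutant 1 stood only just above them and apart from the other three. Its rise was 1.46-fold (log2 change 0.55 ± 0.13 SE, limma adjusted p = 0.00451). In Leca4 the mutants spanned 11.99 to 12.33 against 11.95 to 12.30 in controls (change 0.04, 95% interval -0.23 to 0.31), and in Leca2 the mutants spanned 12.15 to 12.44 against 12.21 to 12.41 in controls (change -0.03, interval -0.30 to 0.24). Both pairs of groups overlapped almost wholly. The Sey change of Sox2 was larger than the Leca4 change by 0.51 (adjusted p = 0.0745) and than the Leca2 change by 0.58 (adjusted p = 0.0661), neither of which was called. With a term for sex in the fit, the Sey change of Sox2 was 0.50 (adjusted p = 0.0322). Without Sey mutant 1 both differences were called, at 0.66 (adjusted p = 0.00545) and 0.72 (adjusted p = 0.00455).

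Sox3, the X-linked SoxB1 gene, went the other way in Sey. Its values were 9.93, 9.83, 9.83 and 9.97 in Sey mutants, against 10.35, 10.36 and 10.42 in controls. Every Sey mutant array, from 1 male and 3 females, was below every control array, all 3 of them from males. The log2 change was -0.49 ± 0.12 SE, a 1.402-fold lower level (limma adjusted p = 0.00506). With a term for sex in the fit the change of Sox3 was -0.55 (adjusted p = 0.00838).

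In Leca4, Sox3 gave 11.57, 11.19 and 11.56 in mutants against 11.02, 11.36, 10.96 and 11.09 in controls. Mutants 1 and 3 lay above all controls, while mutant 2 lay below control 2. The change was 0.33 ± 0.12 and not called (adjusted p = 0.115). It was called without Leca4 mutant 2 (0.46, adjusted p = 0.0296), without Leca4 control 2 (0.42, adjusted p = 0.0415) and with array weights (0.41, adjusted p = 0.0197). In 15 of 18 alternatives it stayed uncalled, and the lowest change among the alternatives was 0.17. A second Sox3 probe set, tested on its own, gave 0.02 in Leca4 (limma adjusted p = 0.96). In Leca2, Sox3 gave 11.28, 11.17, 10.84 and 11.29 in mutants, against 11.59, 11.33 and 11.29 in controls, a change of -0.26 ± 0.12 that was not called (adjusted p = 0.694). The Sey change of Sox3 differed from the Leca4 change by -0.82 ± 0.17 (adjusted p = 0.00254). It differed from the Leca2 change by -0.23 (95% interval -0.58 to 0.12, adjusted p = 0.516), and the Leca4 change exceeded the Leca2 change by 0.59 (adjusted p = 0.0658), neither called.

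Sox9, the SoxE gene of stem cells and glia, gave 9.56, 9.74, 9.58 and 9.63 in Sey mutants, against 9.18, 9.27 and 9.28 in controls, with no overlap. The rise was 1.31-fold (log2 change 0.385 ± 0.101 SE, limma adjusted p = 0.00978). The call for Sox9 was lost with a term for sex (0.36, adjusted p = 0.0505) and without Sey control 1 (0.35, adjusted p = 0.0510). In Leca4, Sox9 spanned 9.46 to 9.73 in mutants against 9.33 to 9.67 in controls (change 0.11, adjusted p = 0.636). In Leca2 it spanned 9.62 to 10.02 in mutants against 9.76 to 10.03 in controls (change -0.09, 95% interval -0.31 to 0.12). The Sey and Leca2 changes of Sox9 differed by 0.48 (adjusted p = 0.0516), which was not called but was in 7 of 25 alternatives, with array weights (0.46, adjusted p = 0.0328) and without Leca2 mutant 4 (0.54, adjusted p = 0.0222) or Leca2 control 2 (0.56, adjusted p = 0.0291) among them.

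Sox21, the SoxB2 repressor, spanned 10.98 to 11.16 in Sey mutants against 10.88 to 11.09 in controls, and the groups overlapped. Its change in Sey was 0.11 ± 0.10 (95% interval -0.11 to 0.32, adjusted p = 0.527). In Leca4 the change of Sox21 was 0.00 (interval -0.21 to 0.21) and in Leca2 -0.02 (interval -0.24 to 0.19). Each of the 3 intervals spans 0.

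Sox4, a SoxC gene of young neurons, gave 13.81, 13.86, 14.01 and 13.97 in Sey mutants, against 13.98, 13.94 and 13.98 in controls. The controls lay close together inside the span of the mutants. The change in Sey was -0.06 ± 0.06 (95% interval -0.18 to 0.07, adjusted p = 0.564), in Leca4 -0.02 and in Leca2 0.02. This Sox4 probe set was brighter than at least 99.7% of the probe sets on every array.

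Sox11, the other SoxC gene, gave 13.66, 13.65, 13.59 and 13.55 in Sey mutants, against 13.79, 13.75 and 13.80 in controls. All Sey mutant arrays were below all controls, by a small margin, and the change of -0.17 ± 0.07 was not called by limma (adjusted p = 0.0952). Sox11 was called with array weights (-0.18, adjusted p = 0.0226) and with the mean of its probe sets in place of 1 of them (-0.22, adjusted p = 0.00685). In Leca4, Sox11 spanned 13.75 to 14.11 in mutants against 13.98 to 14.12 in controls (change -0.10, adjusted p = 0.49), and in Leca2 13.82 to 13.97 in mutants against 13.78 to 13.88 in controls (change 0.04). With Sox11, 5 of 7 members had no overlap in Sey, where 31% of all genes had none, and 0 of 7 had none in Leca4, where 15.3% did.

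**Figure D2:**
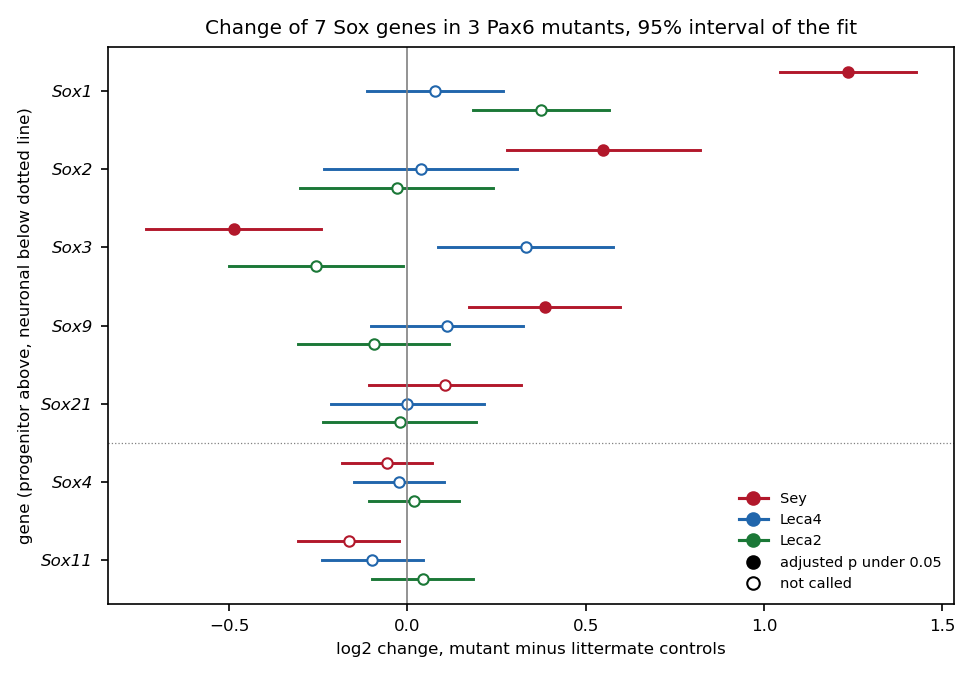
Log2 change, mutant minus littermate controls (x axis), of each Sox gene (y axis) in Sey, Leca4 and Leca2, with the 95% interval of the limma fit. Filled points passed an adjusted p of 0.05, which only Sox1, Sox2, Sox9 (higher) and Sox3 (lower) did, all in Sey.

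The further probe sets give a second reading of most members, from the same arrays. When each kept probe set was tested on its own, 7 of the 21 for the Sox members were called in Sey, where 14.6% of all kept probe sets were, and none in Leca4 (3.77%) or Leca2 (0.373%). The second Sox1 probe set, dim at a mean of 6.01, was 0.74 ± 0.13 higher in Sey mutants (adjusted p = 0.000409), a smaller change than at the brighter one. The second Sox3 probe set, with a mean of 6.51, gave -0.17 in Sey (adjusted p = 0.301), and the second Sox9 probe set 0.37 (adjusted p = 0.0641), so neither was called. Sox2 has a single probe set on the array. Both Sox21 probe sets were higher in Sey by 0.11, uncalled.

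For the SoxC pair the probe sets differed between the genes. None of the 6 kept Sox4 probe sets was called in Sey, with changes from -0.18 to 0.00. All 6 kept Sox11 probe sets were lower in Sey mutants, with changes from -0.295 to -0.165, and 2 of them were called, at -0.25 (adjusted p = 0.00880) and -0.295 (adjusted p = 0.0142). The 3 member probe sets that did not pass the filter, 1 of Sox9 and 2 of Sox4, lay at or below the level on all 21 arrays.

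**Figure D3:**
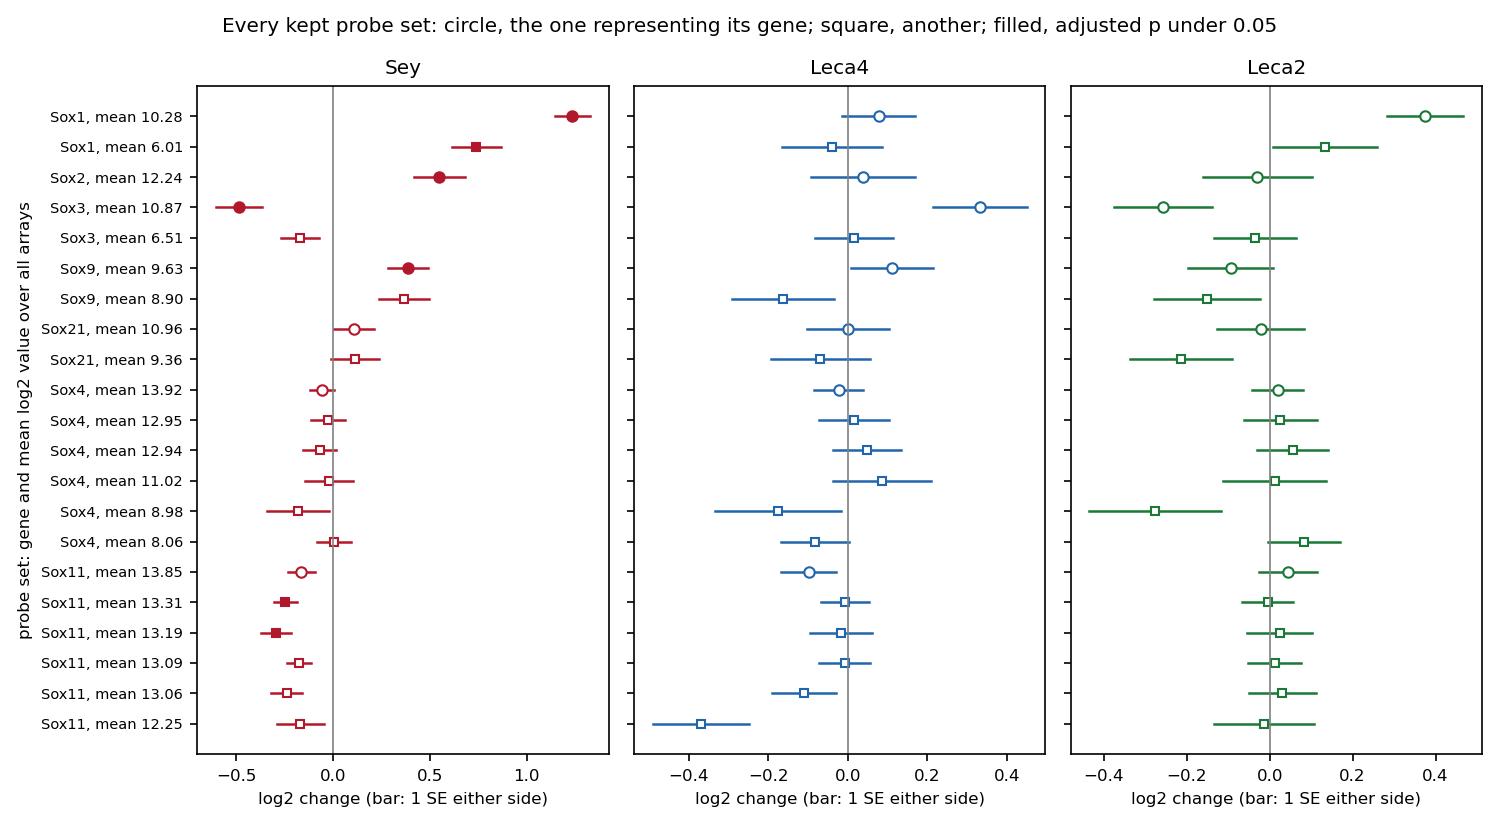
Log2 change, mutant minus littermate controls (x axis, bars 1 SE either side), of each of the 21 kept probe sets of the 7 Sox genes (y axis, with the mean log2 value over all arrays) in Sey, Leca4 and Leca2. Circles are the probe sets that represent their genes, squares the others, and filled symbols passed the test. All 6 Sox11 probe sets lie left of 0 in Sey.

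Variation among replicates linked some members. With each group's mean removed, Pearson's r over the 21 arrays was over 0.6 in size for 8 of the 21 pairs of members, a limit chosen after the values were seen. It was 0.83 between Sox3 and Sox21, 0.80 between Sox1 and Sox2, 0.77 between Sox3 and Sox9, 0.67 for Sox21 with Sox2 and with Sox9, 0.64 between Sox2 and Sox4, 0.63 between Sox1 and Sox4 and -0.66 between Sox3 and Sox11. These values are descriptions, and the points share arrays, dissections and normalization. Across the lines, with each line centred on the midpoint of its group means, the genes whose values followed Sox1 most closely were Tshz1 (r = 0.96), Rffl (0.955) and Pim1 (0.95), for Sox2 they were Trim59, Rfc4 and Lin54 (all 0.93), and for Sox3 Pawr (0.915), Ppp1r14a (0.90) and Gas1 (0.89). For Sox9 they were Smo, Elavl1 and Cemip2 (all 0.92), for Sox21 Tfam (0.88), Pop4 (0.87) and Mrpl54 (0.87), for Sox4 Sh3bgrl (0.89), Ilf2 (0.87) and Zfp719 (0.87), and for Sox11 Sipa1l2 (0.895), Pcx (0.89) and Lonrf2 (0.88). Each of these genes was picked for the highest r among all genes tested. Centring by line keeps the difference between mutants and controls, so these r values do not describe replicates alone. Between Sox1 and Sox3, for example, r was 0.34 with group means removed and -0.57 with lines centred.

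Sox2 lies inside the span of Sox2ot, a long non-coding RNA gene at chr3:34560381-34677993 (GRCm38.p6). Sox2ot stood at 9.48, 9.12, 9.93 and 9.68 in Sey mutants, against 7.74, 7.73 and 7.99 in controls, with a wide gap between the groups. Its rise was 3.33-fold (log2 change 1.74 ± 0.34 SE, limma adjusted p = 0.000881), and with a term for sex it was 1.35 (adjusted p = 0.0125). In Leca4, Sox2ot was at 7.44, 7.18 and 7.37 in mutants against 7.58, 7.54, 7.71 and 7.60 in controls (change -0.28 ± 0.34, adjusted p = 0.738). All Leca4 mutants lay below all controls, in a line where 15.3% of all genes had no overlap. That error is pooled over the 6 groups. In a fit of the Leca4 arrays alone it was smaller, and the change was still not called (-0.28 ± 0.08, limma adjusted p = 0.112). In Leca2 the Sox2ot values were split within each group, at 5.04, 4.96, 6.18 and 6.26 in mutants 1 to 4. Controls 1 to 3 gave 5.03, 4.91 and 6.51, so replicates 1 and 2 were the low ones in both groups. There 2 of 4 mutant and 2 of 3 control arrays were at or below the level of the low-value filter. The change of 0.13 in Leca2 thus rests in part on arrays at that level.

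Of 13 other Sox genes looked at, 12 were tested, and Sox30 did not pass the filter. Of these 12, none rose and 2 fell in Sey, where 20.2% of all genes were called (median change -0.03, against a median of 0.00 over all genes), so that the count is near that of genes at large, and limma called none in Leca4 (4 at an unadjusted p under 0.05) and none in Leca2 (1 at an unadjusted p under 0.05). Both that fell are SoxD genes. Sox5, which in the mouse cortex controls the order in which deep-layer neurons form, was at 10.02, 10.31, 10.18 and 10.14 in Sey mutants against 10.83, 10.67 and 10.88 in controls (change -0.63 ± 0.11, adjusted p = 0.000444), and all 5 kept probe sets of Sox5 were called lower. Sox13 was at 7.49, 7.33, 7.41 and 7.54 in Sey mutants against 7.76, 7.90 and 7.99 in controls (-0.44 ± 0.12, adjusted p = 0.00886), and this call was lost without Sey control 3 (-0.39, adjusted p = 0.0509). The third SoxD gene, Sox6, gave 0.37 in Sey (adjusted p = 0.0745) and 0.46 in Leca4 (adjusted p = 0.0675), where 3 of its 4 probe sets were called when tested on their own.

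POU class III factors bind beside SoxB1 proteins on many neural enhancers. All 4 of the 5 listed POU genes that were tested were called in Sey, 1 up and 3 down, where 20.2% of all genes were called. Pou3f4 was at 10.30, 9.69, 10.08 and 10.02 in Sey mutants against 7.98, 8.14 and 7.91 in controls, a 4.02-fold rise (log2 change 2.01 ± 0.18 SE, limma adjusted p = 1.62e-07). Pou3f1 fell by 1.27 (adjusted p = 7.06e-07), Pou3f2 by 0.77 (adjusted p = 0.00129) and Pou3f3 by 0.335 (adjusted p = 7.50e-05), and for all 3 the mutants lay below the controls. In Leca4, Pou3f4 was lower, at 7.04, 6.95 and 6.485 in mutants against 7.33, 7.63, 7.83 and 7.765 in controls (change -0.81, adjusted p = 0.00866), a call lost without Leca4 mutant 3 (-0.64, adjusted p = 0.0637). Tested on its own, the second Pou3f4 probe set changed by -1.25 in Leca4 (limma adjusted p = 6.85e-05). Pou3f2 also fell in Leca4 (-0.63, adjusted p = 0.0211). Its change stayed negative and the call was lost without Leca4 mutant 1 (-0.645, adjusted p = 0.0583), without mutant 3 (-0.44, adjusted p = 0.127), without control 1 (-0.53, adjusted p = 0.0690) and in a fit of the Leca4 arrays alone (-0.63, adjusted p = 0.126). Pou3f1 was at the edge of the threshold in Leca4 (-0.44, adjusted p = 0.0485), and its call was lost in 12 of 18 alternatives, among them leaving out any 1 of the Leca4 arrays except mutant 2. In Leca2, where 0.477% of all genes were called, limma called no POU gene, with 1 at an unadjusted p under 0.05.

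**Figure D4:**
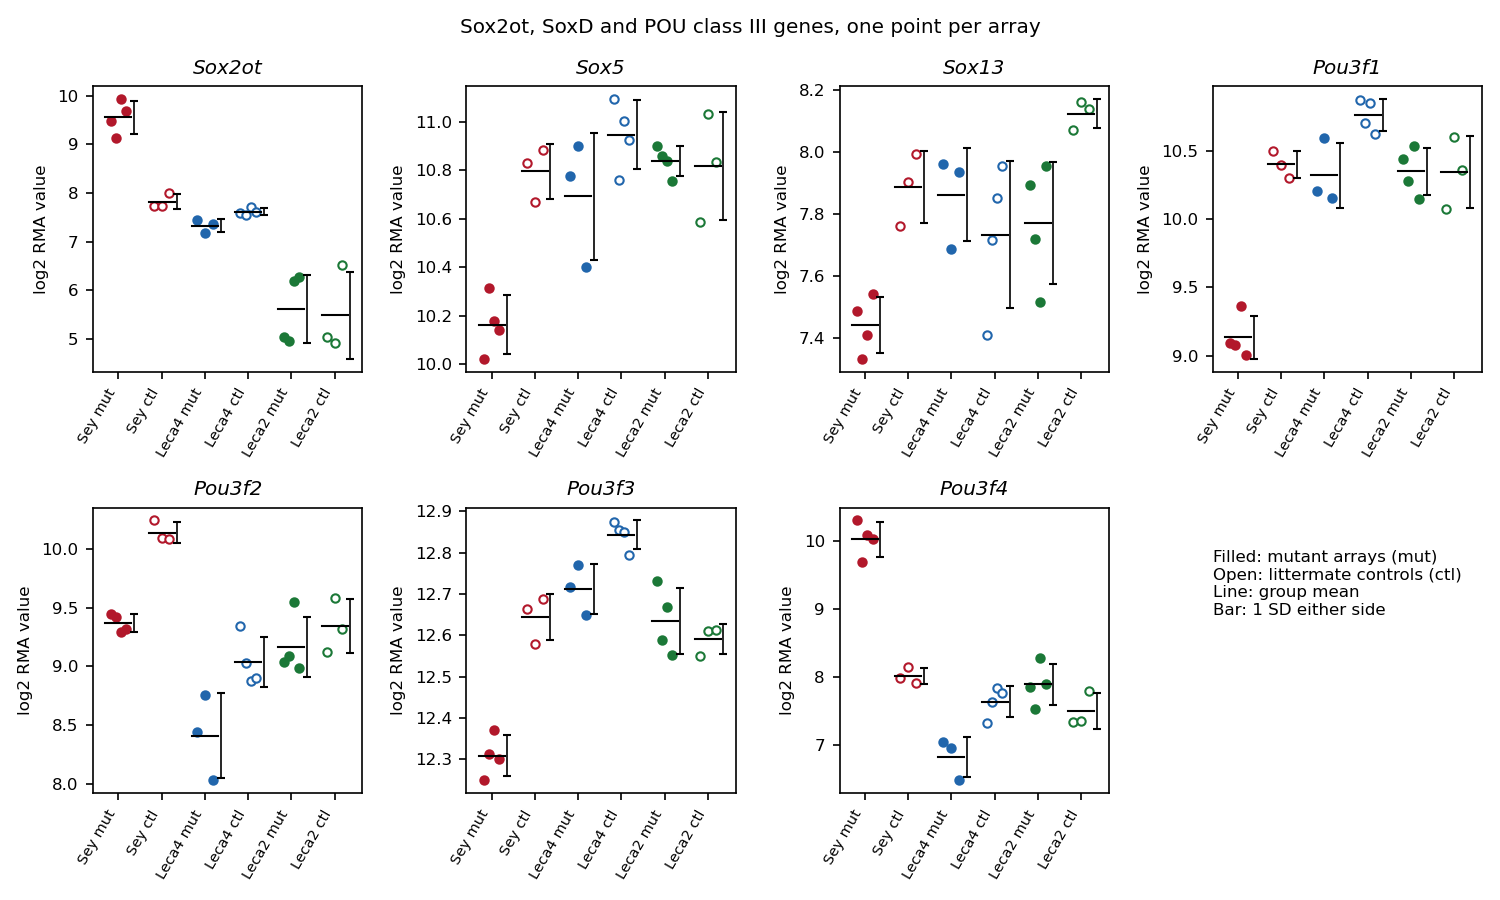
Log2 RMA values (y axis, own scale in each panel) of Sox2ot, the SoxD genes Sox5 and Sox13 and the 4 POU class III genes tested in the 6 groups (x axis), 1 point per array, mutants left of their controls. Lines are group means and bars 1 SD either side. Sey mutants stand above their controls for Sox2ot and Pou3f4 and below them for the other genes.

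Lists of genes for the cells in which these factors work were counted beside the members in Sey, where 20.2% of all genes were called. Of 18 radial glia genes, 5 rose and 4 fell (median change 0.03), among them Aldoc (-1.66, adjusted p = 3.37e-09), a glycolytic enzyme of glia, Slc1a3 (-1.44, adjusted p = 7.33e-09), a glutamate transporter, Notch1 (0.54, adjusted p = 0.00436), a receptor that maintains progenitors, and Emx2 (0.72, adjusted p = 0.00438), a cortical homeobox factor. All 15 cell cycle genes tested rose (median 0.71), and of 18 neuronal differentiation genes 1 rose and 10 fell (median -0.19), the first being Insm1, a factor of newborn neurons (0.44, adjusted p = 0.000480), and among the falls Neurod2 (-0.77, adjusted p = 1.56e-06), a factor of cortical neurons, Syt4 (-0.86, adjusted p = 0.000125) and Rbfox3 (-0.62, adjusted p = 0.000127), a marker of mature neurons. Of 8 gliogenic genes 2 fell and none rose, a count near that of genes at large. Of the 18 radial glia genes, 1 rose and 4 fell in Leca4, where 5.62% of all genes were called. In Leca2, where 0.477% were called, 1 of them rose and 1 fell. In Leca4 and Leca2 limma called none of the cell cycle genes (4 and 2 at an unadjusted p under 0.05) and none of the neuronal differentiation genes (4 and 0).

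Markers of other regions and cell types also moved in Sey. Of 9 ventral telencephalon genes tested 7 rose (median 2.73), and their summed level spanned log2 13.41 to 13.96 in Sey mutants against 10.66 to 10.98 in controls, with no gene at or below the filter level on all Sey arrays. Of 8 dorsal telencephalon genes 2 rose and 5 fell (summed level 14.42 to 14.69 in mutants against 14.96 to 15.05 in controls), and none of the 8 was at or below the filter level on all arrays of any of the 6 groups. The 2 that rose, Emx2 and Lhx2, are also in the radial glia list. Neurod6, which fell, is also in the neuronal differentiation list. Among oligodendrocyte precursor genes 3 of 5 rose (9.54 to 9.67 in mutants against 8.69 to 8.90 in controls) and among meningeal genes 2 of 6 (10.05 to 10.16 in mutants against 9.02 to 9.21 in controls). Over all genes 20.2% were called in Sey. The former were Olig2 (2.73), which is also in the ventral list, Pdgfra (0.80) and Olig1 (0.555). The meningeal genes that rose were Prrx1 (1.46) and Crabp2 (1.78). The rest of both lists was not called, so neither moved as a whole. Limma called no endothelial gene of 9 (2 at an unadjusted p under 0.05) and no microglial gene of 7 (0 at an unadjusted p under 0.05), and Aif1 was at or below the level on all Sey arrays. In Leca4, where 5.62% of all genes and no Sox member were called, 3 of 7 microglial and 2 of 6 meningeal genes rose, the latter again Prrx1 and Crabp2. The part of these markers in the changes of the Sox genes was not tested.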

How the data were processed

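The authors deposited a log2 signal for every probe set and array, made with RMA per the submitters' processing notes. No source used here gives the settings of RMA or a genome build. Per the labels' protocols, total RNA was purified on RNeasy Micro columns with DNase and amplified by MessageAmp Premier. All columns were used. The values share nearly 1 distribution within a line and not between lines, so levels were compared within lines only.

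Probe sets take their genes from the platform annotation, and those with several genes or none were not named. A probe set was kept where at least 3 arrays lay above that array's 40th percentile of non-control probe sets, a level of 5.37 to 5.60. The test was limma 3.58.1 under R 4.3.3, with lmFit and eBayes on 1 fit of 6 group means over 21 arrays (residual degrees of freedom 15, prior 3.54). Benjamini-Hochberg adjustment ran over 13850 genes per comparison, or over 29474 kept probe sets where probe sets were tested singly. All tests were two-sided, and the error beside a change is its standard error in the fit. The number of arrays limits the precision. The p-values set a difference of group means against the spread of these arrays within their groups, pooled over the 6 groups. Quoted 95% intervals are of the fit and not adjusted for the number of genes.

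The text names the 7 members in each comparison, called genes among other Sox genes, up to 4 called members with the smallest p of each other list, and for each member the 3 genes with the highest Pearson r. Sox6 and Pax6 were added for context, and not every such gene is printed. The members and the gene lists were chosen with earlier results of these data known. Alternatives tried were a fit restricted to the compared groups, a replicate block, no filter, a filter at the 60th percentile, averaged probe sets per gene, every probe set, a trend with robust variance, array weights, both rescalings (quantile and median centring), a term for sex and leaving out each array. The scripts were tested on simulated data.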

Additional observations from a re-analysis of the deposited data

Results flagged for a closer look

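The changes of some genes differed between lines by the test of the difference itself, in the same limma fit and with adjusted p over all genes. Each line was set against its own littermate controls, so no control array is shared between the lines. Strain background and allele differ together between Sey and the Leca lines and cannot be told apart. Sex was unbalanced too, and in opposite directions. Males were 1 of 4 Sey mutants and 3 of 3 Sey controls, against 2 of 4 Leca2 mutants and 0 of 3 Leca2 controls. A term for sex ended the calls of Sox2ot and Sox5 between Sey and Leca2. Sox1 changed more in Sey than in Leca4, by 1.16 (adjusted p = 6.17e-06), and more in Sey than in Leca2, by 0.86 (adjusted p = 0.000304). Sox3 differed between Sey and Leca4 by -0.82 (adjusted p = 0.00254), lower in the 4 Sey mutants than in all 3 Sey controls and higher in 2 of the 3 Leca4 mutants than in all 4 Leca4 controls. At the second Sox3 probe set, tested on its own, this difference was -0.19 and not called (limma adjusted p = 0.459).

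Sox2ot, the non-coding transcript around Sox2, rose in Sey with a difference of 2.02 from Leca4 (adjusted p = 0.00782) and of 1.60 from Leca2 (adjusted p = 0.0486). The second value rests on Leca2 arrays of which some are at or below the filter level, and its call was lost in 15 of 25 alternatives. Sox5 differed between Sey and Leca2 by -0.65 (adjusted p = 0.0179), a call lost in 5 of 25 alternatives. Sox13 differed between Sey and Leca4 by -0.57 (adjusted p = 0.0255), a call lost in 4 of 25.

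Among the POU genes, Pou3f4 differed between Sey and Leca4 by 2.82 (adjusted p = 5.47e-07), between Sey and Leca2 by 1.61 (adjusted p = 0.000450) and between Leca4 and Leca2 by -1.21 (adjusted p = 0.0116, and 0.0857 at -1.16 with the replicate number as a block). Pou3f1 differed between Sey and Leca4 by -0.83 (adjusted p = 0.00448, and 0.0728 at -0.74 with the block) and between Sey and Leca2 by -1.27 (adjusted p = 0.000192). Pou3f3 differed between Sey and Leca2 by -0.38 (adjusted p = 0.00247, and 0.213 at -0.24 with the mean of its probe sets).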

How the results depend on the processing

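Of the members' changes against controls, 370 of 378 values under the alternatives kept their direction where called and their side of the threshold, 2 lost a call (both Sox9 in Sey), 6 gained one and no called change turned, while 16 uncalled changes turned their sign. Of 525 differences between lines, 509 stayed on their side of the threshold and 16 gained a call. The number of members called was 3 to 5 in Sey, 0 to 1 in Leca4 and 0 to 1 in Leca2. Over all genes, fitting only the groups compared gave 400 called genes in Leca4 and 27 in Leca2, against 779 and 66. Testing every probe set gave 4311 in Sey (against 2791 genes), 110 in Leca2 and 2672 for the Sey and Leca4 difference (against 1778). Array weights gave 121 in Leca2 and 499 for the Leca4 and Leca2 difference (against 329), and the term for sex gave 293 for the Sey and Leca2 difference (against 927). Leaving out 1 array gave 2106 to 2563 genes in Sey, 512 to 749 in Leca4, 40 to 61 in Leca2, 1326 to 1871 for Sey and Leca4, 529 to 1072 for Sey and Leca2 and 201 to 398 for Leca4 and Leca2. The count in Leca4 moved by over 1.5 times without mutant 1, that in Leca2 without mutant 2, that for Sey and Leca2 without Sey control 1 (582) or Leca2 control 1 (529), and that for Leca4 and Leca2 without Leca2 control 1 (201). The cause of these moves was not tested.

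With the replicate number as a block, 450 genes were called in Leca4, 28 in Leca2, 1015 for the Sey and Leca4 difference, 559 for Sey and Leca2 and 148 for Leca4 and Leca2. The correlation of same-numbered arrays' deviations was 0.09, 0.03 and 0.11 in Sey, 0.10, -0.44 and -0.19 in Leca4 and 0.34, -0.05 and 0.23 in Leca2. So few values of mixed sign cannot settle whether the numbers pair the samples. The block changed no member's call, and among the other genes it ended those of Pou3f1 and Pou3f4 in Leca4, Pou3f1 between Sey and Leca4, Sox5 between Sey and Leca2 and Pou3f4 between Leca4 and Leca2.

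Of 903 values of the other genes under the alternatives, 46 lost a call, 7 gained one and none called turned. The losses were 15 for Sox2ot between Sey and Leca2, 12 for Pou3f1, 4 for Pou3f2 and 2 for Pou3f4 in Leca4, 5 for Sox5 between Sey and Leca2, 4 for Sox13 between Sey and Leca4, and 1 each for Sox13 in Sey, Pou3f1 between Sey and Leca4, Pou3f3 between Sey and Leca2 and Pou3f4 between Leca4 and Leca2. Sox2ot between Sey and Leca2 was not called with a term for sex (0.96, adjusted p = 0.437), in a fit of only the compared groups (adjusted p = 0.108) or with no filter (adjusted p = 0.0588), and Sox5 between Sey and Leca2 not with a term for sex (-0.37, adjusted p = 0.272) or the block (-0.67, adjusted p = 0.108). Pou3f1 in Leca4 was not called in the fit of only the compared groups (adjusted p = 0.103). Signal near the filter level limits Sox2ot in Leca2 and the second probe set of Sox1. The second Sox3 probe set, uncalled in Sey, lay above that level on all 21 arrays (mean 6.51).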
